A study of Mus musculus with 18 samples.

Results

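The potassium channel genes of the mouse whose symbols begin with Kcn were described in skin epidermis and in dorsal root ganglia (DRG), the clusters of sensory nerve cell bodies beside the spinal cord. A probe set, the group of array probes that reads 1 transcript, was taken as a member when the platform annotation paired it with exactly 1 gene and that gene's symbol began with Kcn. This rule gave 95 probe sets of 92 genes, among 21789 probe sets with exactly 1 gene and 23410 paired with at least 1 gene. Kcna2, Kcnh8 and Kcnma1 had 2 probe sets each and every other gene had 1. The symbols cover the pore-forming subunits of every potassium channel class, their accessory subunits, 3 antisense transcripts (Kcnd3os, Kcnmb4os1 and Kcnmb4os2) and Kcnrg, a regulator of channel assembly.

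The study asked how a mutation aimed at the irritant receptor Trpa1 in skin cells alters touch and inflammatory hypersensitivity, and its arrays compared gene expression between genotypes and with inflammation. There were 18 arrays in 6 groups of 3. All mice, controls included, carried K14-Cre, a recombinase driven by the keratin 14 promoter, active in skin keratinocytes and also in sweat and sebaceous glands. Mutant mice were K14-Cre Trpa1 fl/fl, with loxP sites around the exons of the channel pore, and control mice were K14-Cre Trpa1 +/+, which the labels call wild type. The groups were naive control epidermis, naive mutant epidermis, CFA control epidermis, CFA mutant epidermis, naive control DRG and naive mutant DRG. CFA, complete Freund's adjuvant, is an oil emulsion with killed mycobacteria that inflames the paw, and the epidermis was taken 2 days after its injection into the hindpaw. CFA epidermis was set against epidermis of naive mice, so that the injection itself and the adjuvant cannot be told apart. The mice were adult males of a mixed strain background, and the mutant and control colonies had been bred apart, so that genotype and colony cannot be told apart. The labels call the 3 arrays of a group biological replicates, and the sources used here do not say whether 1 array stood for 1 mouse.

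Values are log2 signals after the authors' RMA normalization, in which a difference of 1 is a doubling. An array gives some signal for a transcript that is not there, so each Kcn signal was read against the background of its own array, set at the 95th percentile of the signals from 1210 odorant and vomeronasal receptor probe sets. These receptors serve smell and pheromone sensing and are taken to be near silent in both tissues. The background lay between 4.58 and 4.79 on the 12 epidermal arrays and between 5.77 and 5.94 on the 6 DRG arrays. Because the 2 tissues differed in this floor and in their whole distribution, no signal was tested between tissues. The tissue labels went with their markers. The mean of 11 sensory neuron marker probe sets was 4.59 to 4.85 on epidermal and 11.10 to 11.36 on DRG arrays, and that of 9 differentiated keratinocyte probe sets was 10.61 to 11.77 and 5.39 to 6.18. In whole tissue, fewer cells of a type and less RNA per cell cannot be told apart. Trpa1 was above background on 0 of 12 epidermal arrays, so it gives no check of the genotype labels there, and in DRG it measured 8.99 in controls and 8.61 in mutants (limma, Benjamini-Hochberg adjusted p = 0.482).

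Potassium channels let potassium leave the cell along its gradient and so set the resting voltage and end electrical impulses. In sensory neurons, voltage-gated, calcium-activated and two-pore potassium channels shape firing threshold, spike width and repetitive firing, and loss of potassium current is a known route to hyperexcitability. Keratinocytes do not fire impulses, but potassium channels set their membrane voltage, which affects calcium entry and differentiation.

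More Kcn probe sets were above background in DRG than in epidermis. Of the 95 Kcn probe sets, 76 (80.0%) exceeded background on all 6 DRG arrays, beside 68.4% of all 23410 probe sets and 3.06% of receptor probe sets. In epidermis 41 (43.2%) exceeded it on all 12 arrays, beside 63.3% of all probe sets and 2.56% of receptor probe sets. Both conditions held for 39 Kcn probe sets (41.1%, against 58.6% of all). Above background on every DRG array and on no epidermal array were 24 Kcn probe sets (25.3%), while 4.57% of all probe sets showed this pattern. The reverse pattern was seen for 1 Kcn probe set, Kcnrg (1.05%, against 2.38% of all). A further 10 (10.5%, against 20.2% of all) were above background on no array, and 21 were mixed.

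Most epidermal Kcn signals lay close to the floor. A margin of at least 1 log2 unit over background on every epidermal array was reached by 12 Kcn probe sets (12.6%), beside 46.0% of all probe sets. A margin of at least 2 was reached by 4 of them, Kcnh1, Kcnj15, Kcnk1 and Kcnk6 (4.21%, against 30.8% of all), and a margin of 3 by Kcnk6 (1.05%, against 16.9% of all). In DRG the Kcn shares were near those of all probe sets: 50.5% against 47.8% at a margin of 1, 26.3% against 28.2% at 2, and 16.8% against 13.9% at 3. With a stricter background, the 99th percentile of receptor signals, the 41 epidermal probe sets became 14, so the epidermal count depends on where the floor is drawn.

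**Figure D1:**
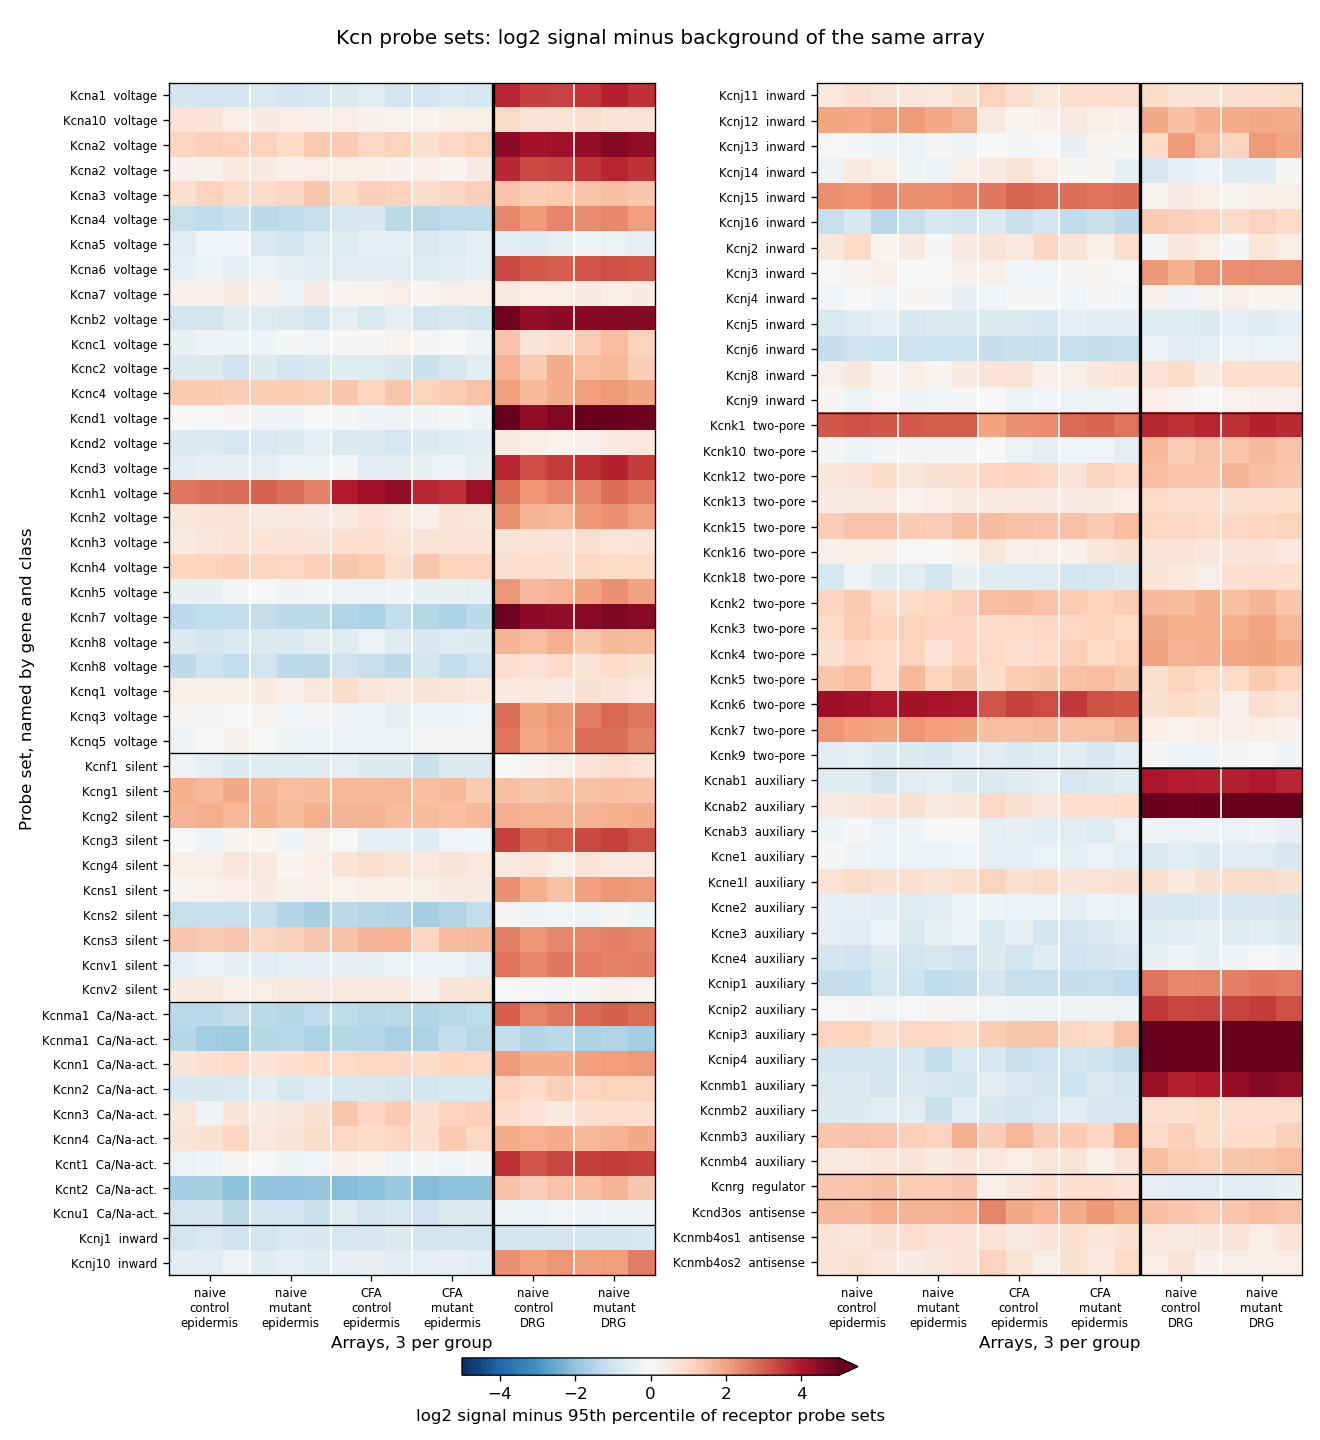
Log2 signal minus the background of the same array (colour, with the upper end clipped) for the 95 Kcn probe sets (rows, grouped by channel class, black lines between classes) on the 18 arrays (columns, 3 per group, the black vertical line between epidermis and DRG). Red is above and blue below background: voltage-gated and auxiliary members are mostly red in DRG and pale or blue in epidermis, and Kcnk6, Kcnk7, Kcnj15 and Kcnrg are redder in epidermis than in DRG.

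The voltage-gated classes (Kcna, Kcnb, Kcnc, Kcnd, Kcnh and Kcnq) open when the membrane depolarizes. Of their 27 probe sets, 26 were above background on every DRG array, 10 on every epidermal array and 10 on every DRG array but no epidermal array. Those 10 were Kcna1, Kcna4, Kcna6, Kcnb2, Kcnc2, Kcnd2, Kcnd3, Kcnh7 and both probe sets of Kcnh8. Kcna1 and Kcna2 form the low-threshold channels that sit beside nodes of axons. Kcna1 measured 9.61, 9.41 and 9.24 in control DRG and 9.51, 9.62 and 9.45 in mutant DRG, and its epidermal signals ran from 3.63 to 4.18, below background on all 12 arrays. Kcna2 was above background in both tissues on both of its probe sets, by 3.29 to 4.60 log2 units in DRG and by 0.10 to 1.30 in epidermis. Kcnb2, a delayed rectifier, was 4.35 to 4.81 above background in DRG and 0.43 to 0.96 below it in epidermis. For Kcnd1 and Kcnd3, which carry the fast inactivating A-type current, the DRG margins were 4.43 to 5.03 and 3.28 to 3.84. Epidermal Kcnd3 was below background on every array, and epidermal Kcnd1 ran from -0.21 to 0.04 around it.

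Kcnq3 and Kcnq5, subunits of the slow M-current that restrains repetitive firing, were 2.03 to 2.88 and 1.95 to 2.75 above background in DRG and straddled it in epidermis. Within the ether-a-go-go family, Kcnh7 was 4.45 to 4.86 above the floor in DRG and below it on all epidermal arrays. Its relative Kcnh1 was 2.49 to 4.38 over background in epidermis and 2.22 to 2.78 over it in DRG. Kcnh2, the cardiac repolarization channel ERG, had margins of 1.66 to 2.33 in DRG and 0.28 to 0.74 in epidermis. The other voltage-gated members above background on all epidermal arrays were Kcna3, Kcna10, Kcnc4, Kcnh3, Kcnh4 and Kcnq1, with margins between 0.16 and 1.42. Kcnc1 and Kcnc4, whose channels allow fast spiking, were 0.67 to 1.55 and 1.62 to 2.14 over background in DRG. Kcna5 was the voltage-gated member below background on all 18 arrays.

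The silent subunits (Kcnf, Kcng, Kcns and Kcnv) form no channel alone and modify the Kcnb channels they join. Of 10 probe sets, 8 were above background on all DRG arrays, 6 on all epidermal arrays and 2, Kcnf1 and Kcnv1, on every DRG array and no epidermal array. Kcng3 was 2.91 to 3.41, Kcnv1 2.40 to 2.72, Kcns3 2.16 to 2.52 and Kcns1 1.48 to 2.27 above background in DRG. Kcng1, Kcng2 and Kcns3 were at least 1.30, 1.51 and 1.09 above it on every epidermal array, with Kcng4, Kcns1 and Kcnv2 nearer to the floor.

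Channels opened by calcium (Kcnma1, Kcnn) or sodium (Kcnt) follow an impulse and slow the next one. Of 9 probe sets, 7 were above background on all DRG arrays, 2 (Kcnn1 and Kcnn4) on all epidermal arrays, and 3 on DRG arrays without any epidermal array. The 9 include Kcnu1, which was counted with these channels and was above background on no array. Kcnt1 measured 9.45, 9.10 and 9.22 in control DRG and 9.37, 9.28 and 9.27 in mutant DRG, and Kcnt2 was 1.23 to 1.68 above the floor there. Both lay at or below background in most epidermal samples. The 2 probe sets of Kcnma1, the large-conductance BK channel, disagreed: one was on average 2.79 above background in DRG and the other 1.48 below it (mean difference -1.48). Kcnn3 was above background on 11 of 12 epidermal arrays.

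Inward rectifiers (Kcnj) pass current near rest, and the satellite glia of ganglia are known for Kcnj10. Of 15 probe sets, 8 were above background on all DRG arrays and 4, Kcnj8, Kcnj11, Kcnj12 and Kcnj15, on all epidermal arrays as well. Kcnj10 was 2.04 to 2.57 above background in DRG and below it on every epidermal array. Kcnj3, a G protein-gated subunit, had DRG margins of 1.76 to 2.32. Among its partners, Kcnj5 and Kcnj6 were below background on all 18 arrays, and Kcnj9 was above it on 5 of 6 DRG arrays, by 0.39 at most. Kcnj13 varied most among replicates in DRG, at 6.84, 8.05 and 7.41 in controls and 7.05, 7.89 and 7.81 in mutants (SD 0.61 and 0.46, n = 3 each), against a median SD over all Kcn probe sets of 0.13 and 0.09. The annotated Kcnj13 gene overlaps Gigyf2.

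Two-pore channels (Kcnk) carry background leak currents, and 10 of their 14 probe sets were over the floor in both tissues. Above background on all DRG arrays were 13, and on all epidermal arrays 10: Kcnk1, Kcnk2, Kcnk3, Kcnk4, Kcnk5, Kcnk6, Kcnk7, Kcnk12, Kcnk13 and Kcnk15. Kcnk10 and Kcnk18, also called TREK-2 and TRESK and known from sensory neurons, were above background on every DRG array and on no epidermal array. Kcnk6 was 3.09 to 4.27 over background in epidermis and 0.26 to 1.00 over it in DRG, and Kcnk7 was 1.46 to 2.21 and 0.17 to 0.36 over it. Kcnk1 had wider margins in DRG, being 2.0 to 3.21 over the epidermal floor and 3.61 to 3.83 over the DRG floor. The mechanically gated Kcnk2 (TREK-1) and Kcnk4 (TRAAK) were 1.39 to 1.78 and 1.75 to 2.03 above the DRG floor, and 0.95 to 1.58 and 0.65 to 1.20 above the epidermal one. Acid-sensitive Kcnk3 (TASK-1) and Kcnk5 (TASK-2) were at least 0.92 and 0.90 above the floor on all epidermal arrays.

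The auxiliary subunits divided by family. All 4 Kcnip members, calcium-binding partners of the Kcnd channels, and all 4 Kcnmb members, partners of Kcnma1, were above background on every DRG array. Kcnip4 was 5.49 to 5.68 above it, Kcnip3 5.07 to 5.87 and Kcnmb1 3.85 to 4.54. The annotated Kcnmb1 and Kcnip1 genes overlap on opposite strands, and the part of this overlap in their signals was not tested. Of the Kcnab subunits, which bind Kcna channels, Kcnab2 and Kcnab1 had DRG margins of 4.85 to 5.54 and 3.83 to 4.06. In the Kcne family, small membrane proteins that tune Kcnq1 and other channels, Kcne1, Kcne2, Kcne3 and Kcne4 were above background on 0 of 18 arrays and Kcne1l on all of them. Epidermal signal on all 12 arrays was seen for 5 auxiliary probe sets, Kcnab2, Kcne1l, Kcnip3, Kcnmb3 and Kcnmb4.

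With CFA, the largest epidermal changes were a rise of Kcnh1 and a fall of Kcnj12, each about 3-fold in control mice and both seen in both genotypes. In control epidermis 20 of 95 Kcn probe sets passed the test (limma, Benjamini-Hochberg adjusted p under 0.05 over 23410 probe sets), 15 higher and 5 lower. This was 21.1% of Kcn probe sets beside 26.3% of all probe sets, 11.5% of all being higher and 14.8% lower. In mutant epidermis 18 passed (18.9%), 13 higher and 5 lower, beside 26% of all probe sets, of which 12.9% were higher and 13.1% lower. The Kcn shares were thus below the background shares in total. The Kcn median log2 change was 0.14 in control and 0.13 in mutant epidermis, against 0.03 and 0.04 for all probe sets and 0.01 and 0.02 for receptor probe sets. The background itself was higher with CFA, 4.58 to 4.62 on naive and 4.7 to 4.79 on CFA arrays of controls. In mutants it was 4.58 to 4.69 and 4.72 to 4.78. The part of this shift in the Kcn medians was not tested. The comparison of controls and that of mutants share no arrays. Called in both were 10 genes, 50% of the control calls and 55.6% of the mutant calls, all 10 with the same direction: Kcng4, Kcnh1, Kcnj15, Kcnk2, Kcnn3 and Kcnq1 rose and Kcnj12, Kcnk6, Kcnk7 and Kcnrg fell. These 10 were 10.5% of Kcn probe sets, beside 16.9% of all probe sets called in both. Over all probe sets the 3966 called in both were 64.5% of the control calls and 65.1% of the mutant calls, and 3964 of them had the same direction, so the Kcn shares were below those of all probe sets.

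Kcnh1 encodes Eag1, a voltage-gated channel linked to cell proliferation. It measured 7.23, 7.34 and 7.41 in naive control epidermis and 8.74, 8.93 and 9.09 in CFA control epidermis, and 7.52, 7.44 and 7.13 in naive mutant and 8.54, 8.41 and 8.96 in CFA mutant epidermis. Every CFA array was above every naive array. The change was 3.01-fold in controls (log2 change 1.59, SE 0.109, limma adjusted p = 1.03e-05) and 2.42-fold in mutants (1.27, SE 0.157, adjusted p = 0.000697). Kcnj15 (Kir4.2) followed the same course, from 6.91, 6.84 and 7.04 to 7.44, 7.64 and 7.51 in controls and from 6.91, 7.03 and 7.10 to 7.55, 7.48 and 7.48 in mutants. It rose 1.52-fold (adjusted p = 0.00165) and 1.40-fold (adjusted p = 0.00254), with no overlap of CFA and naive arrays. Over the 12 epidermal arrays, Kcnj15 was the Kcn probe set most like Kcnh1 (Pearson r = 0.93), a description in which the points share treatment groups.

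Kcnj12, also called Kir2.2, is a strong inward rectifier that holds cells near the potassium equilibrium voltage. Its signals fell from 6.57, 6.52 and 6.72 to 5.26, 4.80 and 4.92 in controls and from 6.71, 6.63 and 6.35 to 5.23, 5.09 and 4.93 in mutants. The lowest naive array stood above the highest CFA array, and the CFA arrays came within 0.08 log2 units of background at the lowest. The fall was 3.05-fold (log2 change -1.61, SE 0.128, adjusted p = 2.52e-05) in controls and 2.79-fold (-1.48, SE 0.116, adjusted p = 5.9e-05) in mutants. Most like it over the 12 epidermal arrays were Kcnk6 and Kcnk7 (r = 0.94 each) and Kcnrg (r = 0.85).

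Kcnk6 (TWIK-2), a leak channel, measured 8.86, 8.78 and 8.67 in naive control and 7.93, 8.14 and 7.95 in CFA control epidermis, and 8.74, 8.81 and 8.71 in naive mutant and 8.33, 7.95 and 7.81 in CFA mutant epidermis. It fell 1.70-fold (adjusted p = 0.000446) and 1.65-fold (adjusted p = 0.0041), with separate groups in both genotypes. Kcnk7, a related subunit with no known current of its own, went from 6.78, 6.64 and 6.61 to 6.31, 6.23 and 6.29 in controls and from 6.79, 6.73 and 6.64 to 6.26, 6.22 and 6.41 in mutants. Its falls were 1.32-fold (adjusted p = 0.00901) and 1.34-fold (adjusted p = 0.00725). Kcnrg went from 5.93, 5.96 and 6.11 to 5.06, 5.29 and 5.54 in controls and from 5.85, 5.96 and 5.98 to 5.67, 5.59 and 5.41 in mutants, 1.63-fold (adjusted p = 0.00336) and 1.30-fold (adjusted p = 0.0164) lower. The annotated Kcnk7 gene overlaps Ehbp1l1 and Kcnrg overlaps Trim13, and the part of the overlapping genes was not tested.

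Epidermal markers moved in the same comparisons. The mean of the 9 differentiated keratinocyte probe sets was 11.70 to 11.77 in naive and 10.61 to 11.04 in CFA epidermis, lower as Kcnj12, Kcnk6, Kcnk7 and Kcnrg were. The mean of 4 basal keratinocyte probe sets was 10.92 to 11.06 in naive and 11.33 to 11.61 in CFA epidermis, higher as Kcnh1 and Kcnj15 were. T cell markers (5 probe sets, Cd3d at background) had means of 5.12 to 5.28 and 5.55 to 5.73, and neutrophil markers (6 probe sets, Csf3r at background) of 5.34 to 6.50 and 5.99 to 7.57. Myelinating Schwann cell markers (3 probe sets) had means of 6.63 to 6.80 in naive and 6.27 to 6.55 in CFA epidermis. Merkel cell markers (6 probe sets, Krt20 at background) had means of 5.03 to 5.15 and 5.19 to 5.33, and endothelium and pericyte markers (6 probe sets, Rgs5 at background) of 4.55 to 4.82 and 4.84 to 4.95. Above background on all 12 epidermal arrays were 2 of the 6 Merkel cell and 1 of the 6 endothelium and pericyte probe sets. The endothelium and pericyte means lay near the background, which was itself higher with CFA, as given above. The part of these shifts in the Kcn changes was not tested.

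The promoters of 4 of these genes, a rising pair and a falling pair each with closely matched profiles, are shown because the pairs moved together. Each is the RefSeq sequence of assembly GRCm38.p6 in a window of 300 bases that ends just after the gene's start, read along the gene, with every CG pair in capitals.
Kcnh1 promoter (chr1:192190527-192190826, plus strand): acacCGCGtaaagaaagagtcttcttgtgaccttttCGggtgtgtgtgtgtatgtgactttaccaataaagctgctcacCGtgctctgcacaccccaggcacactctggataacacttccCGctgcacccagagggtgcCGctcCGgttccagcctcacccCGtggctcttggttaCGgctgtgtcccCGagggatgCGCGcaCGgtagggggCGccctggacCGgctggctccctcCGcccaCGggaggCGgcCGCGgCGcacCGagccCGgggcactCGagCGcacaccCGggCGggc
Kcnj15 promoter (chr16:95257308-95257607, plus strand): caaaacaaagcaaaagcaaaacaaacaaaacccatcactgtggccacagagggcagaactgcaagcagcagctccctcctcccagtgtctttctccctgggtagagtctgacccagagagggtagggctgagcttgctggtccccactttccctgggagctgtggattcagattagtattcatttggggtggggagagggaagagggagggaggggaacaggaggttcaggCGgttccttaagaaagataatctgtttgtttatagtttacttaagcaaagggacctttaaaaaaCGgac
Kcnj12 promoter (chr11:61065554-61065853, plus strand): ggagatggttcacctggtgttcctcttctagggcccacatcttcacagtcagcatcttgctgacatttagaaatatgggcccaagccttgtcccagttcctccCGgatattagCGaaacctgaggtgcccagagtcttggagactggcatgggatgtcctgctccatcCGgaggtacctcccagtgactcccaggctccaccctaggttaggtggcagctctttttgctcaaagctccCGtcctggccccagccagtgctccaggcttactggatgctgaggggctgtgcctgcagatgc
Kcnk7 promoter (chr19:5704221-5704520, plus strand): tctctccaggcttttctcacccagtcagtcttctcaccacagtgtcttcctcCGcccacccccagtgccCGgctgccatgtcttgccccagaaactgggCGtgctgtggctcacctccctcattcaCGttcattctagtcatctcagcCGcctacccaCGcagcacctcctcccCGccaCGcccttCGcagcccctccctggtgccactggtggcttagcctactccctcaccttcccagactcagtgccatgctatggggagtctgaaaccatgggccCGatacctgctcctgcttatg
The Kcnh1 window held 27 CG pairs, Kcnj15 2, Kcnj12 4 and Kcnk7 10, so the rising pair did not share this feature. The AP-1 motif TGANTCA, read on both strands, was in none of these 4 windows. It was in 4 of 95 promoters of 70 Kcn genes (4.21%) and in 7.81% of 32851 mouse promoters of the same length. The NF-kappaB motif was also in none of the 4 and was in 12 of the 95 Kcn promoters (12.6%), against 8.46% of all. Overlapping windows of 1 gene were counted apart, among them Kcnc2 windows that carried this motif. By tissue pattern, the median ratio of observed to expected CG pairs was 0.36 over 31 promoters of Kcn genes above background in DRG alone, 0.52 over 39 promoters of those in both tissues, and 0.38 over all promoters.

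**Figure D2:**
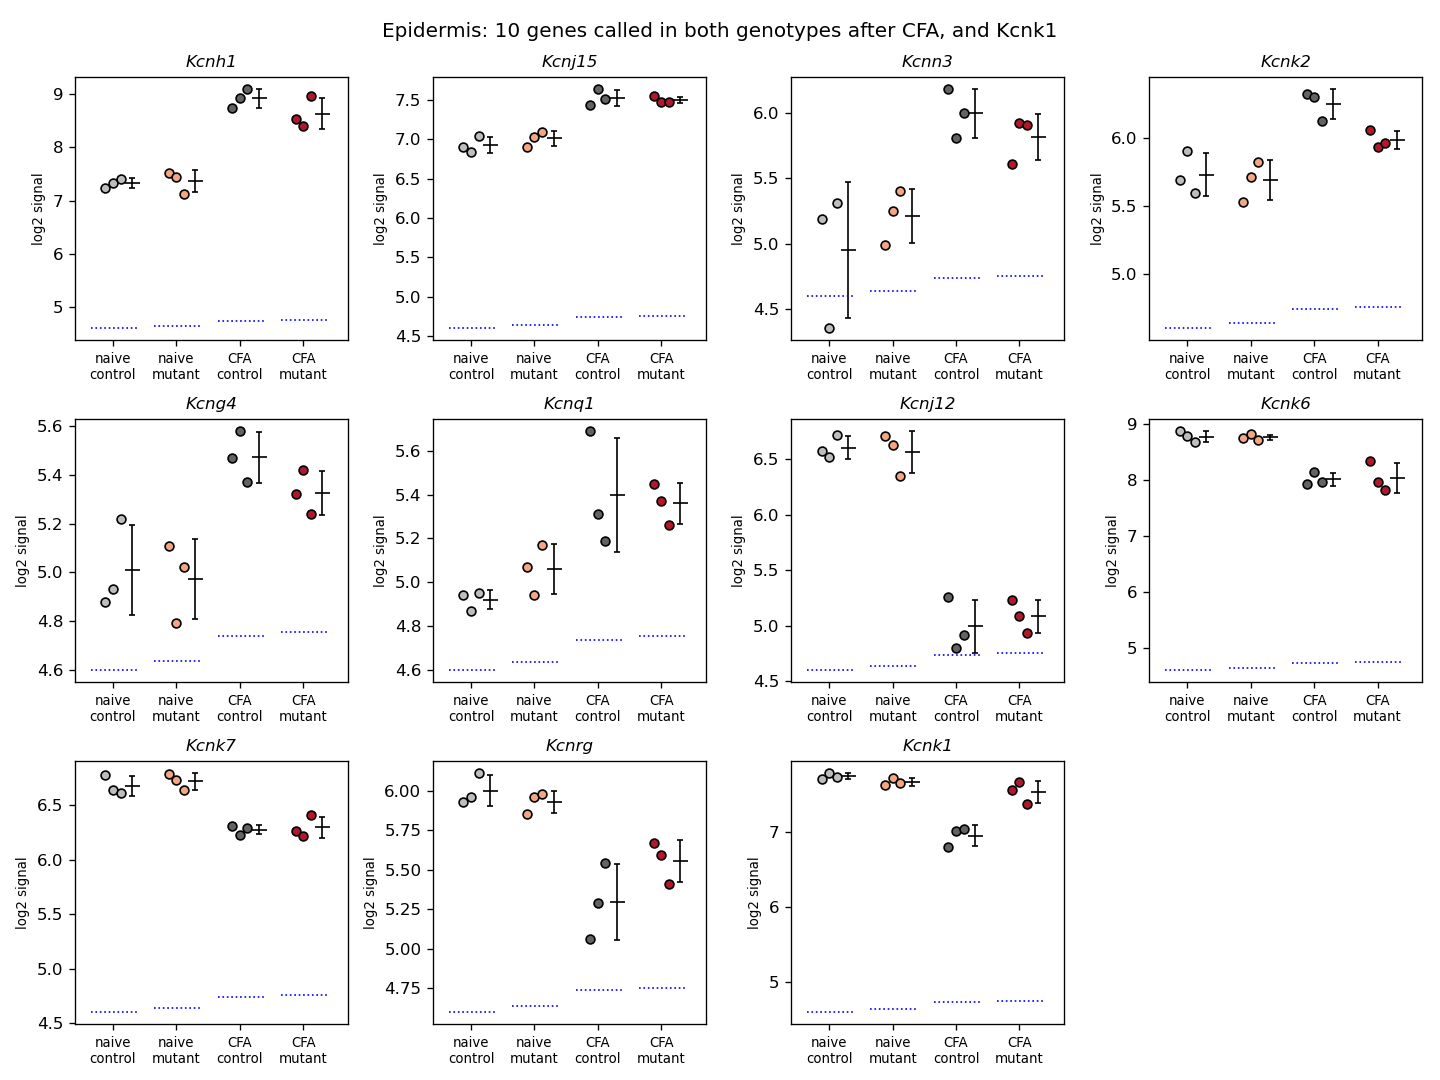
Log2 signal (vertical axis, a separate range in each panel that does not start at 0) on each epidermal array for the 10 genes called in both genotypes and Kcnk1, by group (horizontal axis, 3 arrays each). Points are arrays, the bar and whiskers are the mean and SD, and the dotted line is the mean background. Kcnh1 and Kcnj12 show the widest steps between naive and CFA, and Kcnk1 shows CFA mutant arrays (7.38 to 7.67) above CFA control arrays (6.80 to 7.05).

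The other 4 genes that rose in both genotypes changed less. Kcnn3, a small-conductance calcium-activated channel, went from 5.19, 4.35 and 5.31 to 6.18, 5.81 and 6.00 in controls and from 4.99, 5.25 and 5.40 to 5.61, 5.92 and 5.91 in mutants. It rose 2.07-fold (adjusted p = 0.00872) and 1.51-fold (adjusted p = 0.00977), and its naive control array of 4.35 was the only epidermal one below background. Kcnk2, the mechanically gated leak channel, rose 1.43-fold in controls (adjusted p = 0.00693), from 5.69, 5.90 and 5.59 to 6.32, 6.30 and 6.12, and 1.23-fold in mutants (adjusted p = 0.0436), from 5.53, 5.71 and 5.82 to 6.06, 5.93 and 5.96. Kcng4, a silent subunit, rose 1.38-fold (adjusted p = 0.0147) and 1.28-fold (adjusted p = 0.0322). Kcnq1, which carries slow potassium currents in heart and epithelia, rose 1.39-fold (adjusted p = 0.0242) and 1.23-fold (adjusted p = 0.0377). The mutant calls of Kcng4, Kcnk2 and Kcnq1 held under 6, 6 and 5 of 17 alternatives, and all 3 were lost with quantile normalization, median centring, all probe sets tested, ordinary analysis of variance or the replicate block.

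Calls made in controls alone included Kcnk1 (lower), Kcnk12 (1.44-fold), Kcnip3 (1.37-fold), Kcns3 (1.33-fold) and Kcnn1 (1.26-fold), with adjusted p from 0.000325 to 0.037. Kcnk1 and Kcns3 held under 16 of 17 alternatives, Kcnk12 and Kcnip3 under 15 and Kcnn1 under 6. Kcnc1 was below background on all 3 naive control arrays (4.23, 4.37 and 4.42) and above it on all 3 CFA arrays (4.86, 4.76 and 4.87), at least 1.18-fold higher (adjusted p = 0.00373). That bound uses the naive background, and the CFA signals averaged only 0.09 log2 units over the background of their own arrays. The signals of Kcna1, Kcnb2, Kcne2 and 1 probe set of Kcnh8 passed the test too, but they were below background in both groups and no fold is given. In mutants alone the calls were Kcnk16 (1.52-fold), Kcnn4 (1.37-fold), Kcnj2 (1.37-fold), Kcnab2 (1.28-fold), Kcnj11 (1.28-fold) and Kcnd3os (1.25-fold) higher, and Kcnab3 lower, with adjusted p from 0.0102 to 0.0495. Of 17 alternatives, Kcnab2 held under 16, Kcnk16 under 15, Kcnj11 under 10, Kcnn4 under 8, and Kcnj2 and Kcnd3os under 5 each. Kcnab3 held under 7 of 16. Kcnk16 was above background on 1 of 3 naive arrays, Kcnj2 on 2 and Kcnab3 on 1, the last with no CFA array above it. Kcnj5 was called while below background on every array. A call in one genotype and not in the other did not show a difference between them, and the difference itself was tested.

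**Figure D3:**
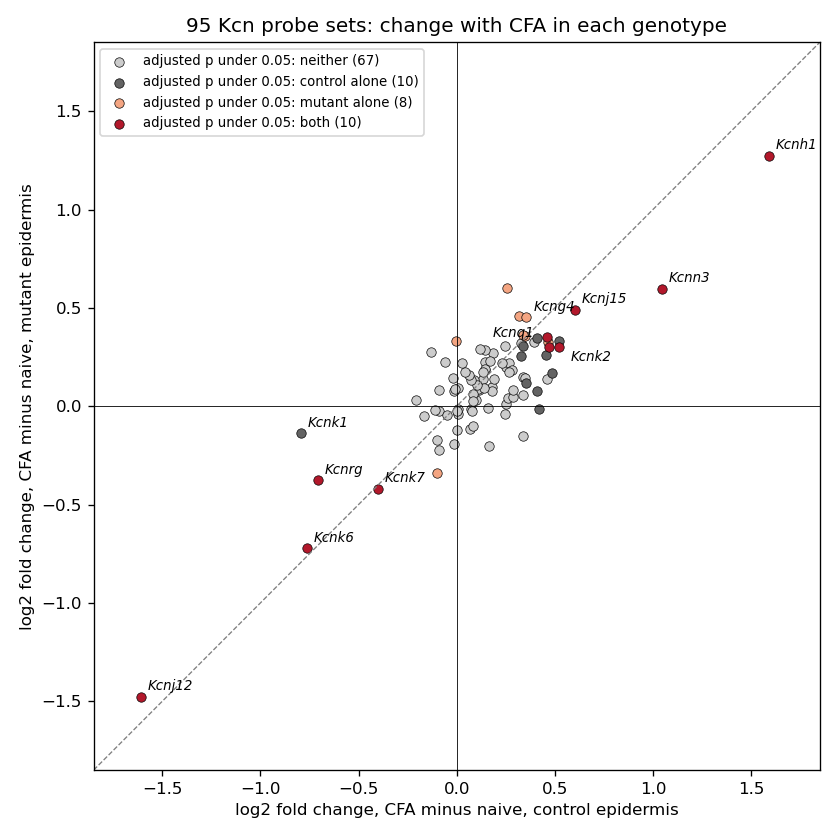
Log2 fold change, CFA minus naive, in control (horizontal axis) and mutant (vertical axis) epidermis for the 95 Kcn probe sets, each a point, coloured by where the adjusted p was under 0.05, with the dashed line at equal change. The 10 genes called in both lie in the upper right or lower left, Kcnh1 (1.59 and 1.27) and Kcnj12 (-1.61 and -1.48) farthest out, and Kcnk1 (-0.79 and -0.14) stands off the line.

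The CFA response did not differ between genotypes for any of 95 Kcn probe sets at adjusted p under 0.05 (limma interaction, 0.0256% of all probe sets passed), with 8 at unadjusted p under 0.05 (8.42%, against 8.26% of all). The smallest p belonged to Kcnk1 (TWIK-1). In naive epidermis it measured 7.71, 7.79 and 7.74 in controls and 7.63, 7.73 and 7.66 in mutants. After CFA it measured 6.80, 7.02 and 7.05 in controls and 7.56, 7.67 and 7.38 in mutants. Its fall was 1.73-fold in controls (log2 change -0.79, SE 0.096, adjusted p = 0.000325) and 1.10-fold in mutants (-0.14, SE 0.091, adjusted p = 0.307), and the difference of 0.66 (SE 0.13) had an adjusted p of 0.16. Without CFA mutant replicate 3 this difference passed the threshold. Kcnh5, Kcna5, Kcnb2 and Kcnc1 came next, with adjusted p from 0.496 to 0.545. Of the 12 epidermal arrays, Kcna5 and Kcnb2 were above background on 0, Kcnh5 on 1 and Kcnc1 on 3.

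Between genotypes, none of the 95 Kcn probe sets passed limma's test at adjusted p under 0.05 in any tissue or condition, where 0.0299% of all probe sets passed in naive epidermis, 0.179% in CFA epidermis and 0.0726% in DRG. Unadjusted p under 0.05 was reached by 2 Kcn probe sets in naive epidermis (2.11%, against 8.94% of all), by 6 in CFA epidermis (6.32%, against 8.96%) and by 9 in DRG (9.47%, against 7.15%). The mutant and control arrays did not overlap for 5 Kcn probe sets in naive epidermis (16.6% of all probe sets did not), 14 in CFA epidermis (14.3% of all) and 10 in DRG (11.8% of all). The Kcn log2 changes ran from -0.48 to 0.26, from -0.55 to 0.58 and from -0.32 to 0.57. Their medians were 0.02, -0.03 and 0.03, against 0, 0.01 and 0 for all probe sets.

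In naive epidermis the smallest p values belonged to Kcna5, Kcnn2, Kcns2, Kcnk16 and Kcnh5, with adjusted p from 0.437 to 0.571. Kcna5, Kcnn2 and Kcns2 were below background on all 6 arrays, Kcnk16 was above it on 1 mutant and 3 control arrays, and Kcnh5 on 1 mutant array. In CFA epidermis Kcnk1 led, 1.5-fold higher in mutants with no overlap of the arrays given above (log2 difference 0.58, SE 0.113, adjusted p = 0.102). Kcnj14, an inward rectifier, measured 5.23, 5.39 and 5.08 in controls and 4.84, 4.86 and 4.33 in mutants (log2 difference -0.55, SE 0.152, adjusted p = 0.265), with 2 of 3 mutant arrays above background. With the replicate block Kcnk1 and Kcnj14 passed, and with all epidermal groups in one fit Kcnk1 passed. Kcnb2, Kcnk2 and Kcnk5 followed, with adjusted p from 0.396 to 0.495, and Kcnb2 was below background on every array of both groups. Macrophage and Langerhans cell markers (6 probe sets, Adgre1 and Mrc1 at background) had means of 5.69 to 5.86 in CFA control and 5.25 to 5.35 in CFA mutant epidermis, and their part in these differences was not tested.

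In DRG the smallest p belonged to Kcnf1, a silent subunit, which measured 5.86, 6.03 and 6.16 in controls and 6.56, 6.63 and 6.56 in mutants. All mutant arrays were higher, and the lowest control array was 0.03 above background. The difference was 1.48-fold (log2 0.57, SE 0.085) and missed the threshold (adjusted p = 0.0706). Kcnip3, which also acts as the transcription repressor DREAM, measured 11.44, 11.01 and 11.17 in controls and 11.68, 11.64 and 11.50 in mutants (log2 difference 0.40, SE 0.112, adjusted p = 0.471). Kcnmb1 measured 10.16, 9.79 and 9.90 against 10.28, 10.31 and 10.29 (0.35, SE 0.097, adjusted p = 0.472), and Kcnk18 measured 6.53, 6.45 and 6.22 against 6.76, 6.64 and 6.68 (0.29, SE 0.091, adjusted p = 0.564). The groups did not overlap for any of these 4 genes. The fifth was the Kcnma1 probe set below background on all arrays.

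For several neuronal members the first control DRG array stood with the mutant arrays. Kcnq3 measured 8.59, 7.97 and 8.08 in controls and 8.46, 8.66 and 8.53 in mutants, and Kcnq5 8.51, 7.89 and 8.0 against 8.66, 8.52 and 8.33. The mean of the 11 sensory neuron marker probe sets had the same order, 11.36, 11.10 and 11.12 in controls and 11.36, 11.27 and 11.22 in mutants. Without control replicate 1, Kcnf1, Kcnmb1 and Kcnq3 passed the threshold and 0 did with all arrays, and the part of neuron content in this was not tested. The share of all probe sets passing without that array is not given here, so these calls cannot be set against it. Differentiated keratinocyte markers, on the 9 probe sets, averaged 5.39, 5.51 and 5.75 in control DRG and 6.18, 5.49 and 5.49 in mutant DRG. Leaving out control replicate 3 and mutant replicate 1, an alternative added after seeing the data, gave 0 Kcn calls. The genotype effect in DRG differed from that in naive epidermis for 0 of 95 Kcn probe sets (0.0555% of all passed), with 9 at unadjusted p under 0.05 (9.47%, against 7.62% of all).

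**Figure D4:**
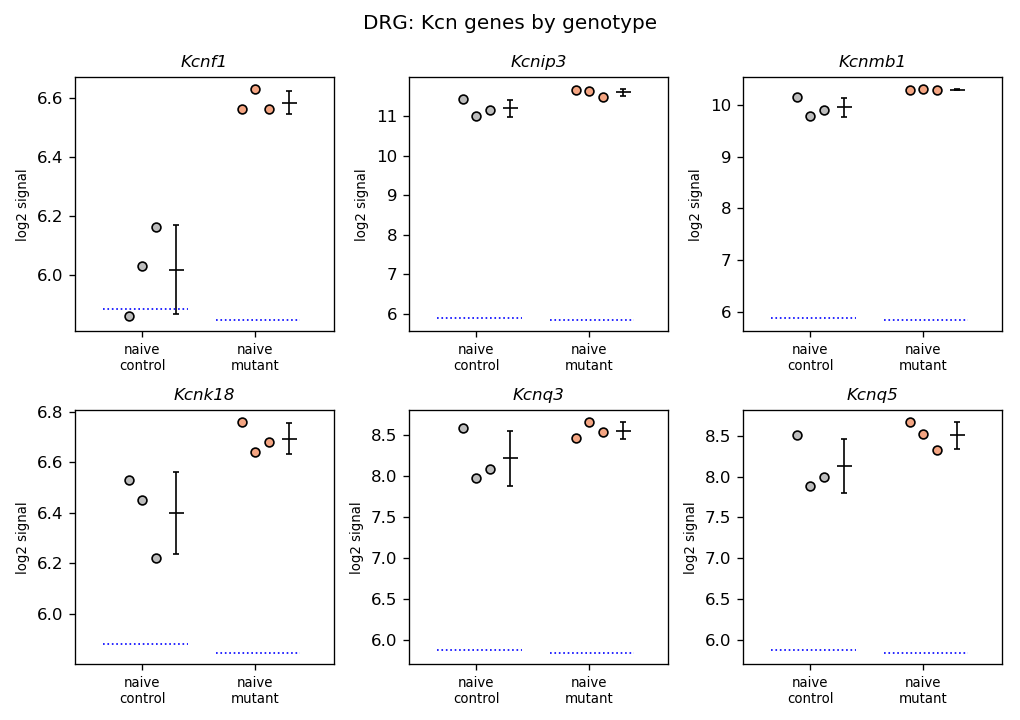
Log2 signal (vertical axis, a separate range in each panel that does not start at 0) in naive control and naive mutant DRG (3 arrays each, points) for the 4 DRG genes of smallest p that were above background and for Kcnq3 and Kcnq5. Bars and whiskers are mean and SD and the dotted line is the mean background. Kcnf1 groups are apart (5.86 to 6.16 and 6.56 to 6.63), and the highest control point of Kcnq3 (8.59) and of Kcnq5 (8.51) lies among the mutant points.

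Proteins that bind or traffic potassium channels were followed as a list of 36 partner genes, of which 34 were measured on 35 probe sets. In control epidermis CFA raised 8 of the 35 probe sets and lowered 1, with a median log2 change of 0.16. In mutant epidermis it raised 6 of the 35 and lowered 0, with a median of 0.12. The shares over all probe sets are those given above, 11.5% higher and 14.8% lower in controls and 12.9% higher and 13.1% lower in mutants. Lgi2, a secreted protein related to the Kcna partner Lgi1, had the smallest p in both genotypes. It measured 4.44, 4.56 and 4.69 in naive control and 7.05, 6.62 and 7.41 in CFA control epidermis, and 4.28, 4.78 and 4.76 in naive mutant and 6.02, 6.33 and 6.53 in CFA mutant epidermis. CFA and naive arrays did not overlap, and 1 of 3 naive control and 2 of 3 naive mutant arrays exceeded background. The measured log2 change was 2.46 in controls (SE 0.177, limma adjusted p = 1.37e-05) and 1.69 in mutants (SE 0.167, adjusted p = 0.000211), from naive means at background. The CFA mutant signals were lower than the CFA controls by a log2 difference of -0.74 that did not pass (adjusted p = 0.255), nor did the difference of the responses (adjusted p = 0.465).

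Amigo1 (a Kcnb partner), Cntn2 (which anchors Kcna channels beside nodes), Vapb (an organizer of Kcnb clusters) and Nedd4l (a ubiquitin ligase of Kcnq and other channels) rose in both genotypes, by 1.27-fold to 1.48-fold. In controls Jph4 rose 1.30-fold and Akap5 fell 1.32-fold, and neither passed in mutants. Abcc9, the partner of Kcnj8 and Kcnj11, also passed in controls and not in mutants, from a naive control mean of 4.47 with 1 of 3 arrays above background to a CFA control mean of 4.88 with 3 of 3 above. Adam22, counted among those raised in controls, was below background on all epidermal arrays. Ank3 rose 1.25-fold in mutants and did not pass in controls. No partner passed between genotypes in any tissue. The smallest p in CFA epidermis was that of Lgi2, given above, in naive epidermis that of Lgi4 (log2 difference 0.31, adjusted p = 0.475) and in DRG that of 1 of the 2 Dpp6 probe sets (-0.39, adjusted p = 0.589). Dpp6 and Dpp10, partners of Kcnd channels, and Lgi1, Adam23 and Cntnap2, partners of Kcna channels, were above background on all 6 DRG arrays and 0 of 12 epidermal arrays.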

How the data were processed

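The authors made labelled cDNA from the RNA of epidermis peeled from the hindpaw after dispase and of lumbar DRG. This cDNA was hybridised to Affymetrix Mouse Gene arrays. The deposited values are log2 signals, made by the authors with RMA in Partek, per the labels and the study's methods; versions and the genome build are not given in the sources used here. Of 35556 probe sets, 23410 were paired with a gene in the platform annotation, 21789 of them with exactly 1, 1621 with several and 12146 with none. For arrays, the number of arrays limits the precision. No sample was left out.

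Groups were compared within a tissue with limma 3.58.1 in R 4.3.3 (lmFit and eBayes, two-sided) on the arrays of the groups compared, with the 4 epidermal groups for the difference of CFA responses, with Benjamini-Hochberg adjustment of p-values over the 23410 probe sets. The p-values set each difference of means against the spread between the 3 arrays of a group. That spread was drawn by eBayes toward the spread over all probe sets tested. Descriptions used Python 3.11.15. The fit was tested on simulated data. Background was the 95th percentile of 1210 Olfr and Vmn probe sets. A bound ("at least") sets the brighter group's mean against the background of the dim group's arrays.

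Members and lists were chosen with earlier results of these data known. Named are Kcn probe sets past the threshold, the 5 of smallest p per comparison, those above background on all 12 epidermal arrays, a list of channels known from ganglia and skin, partners past the threshold and the partner of smallest p per comparison. Kcnq3 and Kcnq5 in the DRG comparison, and probe sets named for a tissue pattern, were chosen after their values were seen. Alternatives were quantile normalization, median centring, all probe sets, a moderated trend, ordinary analysis of variance, a 2-fold minimum, adjusted p under 0.1, a replicate block, one fit per tissue, other background percentiles and each array left out. Marker lists of other cell types (myelinating Schwann cell, satellite glia, melanocyte, Merkel cell, fibroblast, endothelium and pericyte, muscle) had means of 6.27 to 6.80, 6.69 to 6.88, 4.83 to 5.44, 5.03 to 5.33, 5.70 to 5.92, 4.55 to 4.95 and 5.51 to 5.71 in epidermis and of 9.72 to 9.99, 10.07 to 10.18, 5.67 to 5.94, 6.80 to 6.93, 8.86 to 9.40, 7.63 to 7.93 and 6.79 to 6.98 in DRG.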

Additional observations from a re-analysis of the deposited data

How the results depend on the processing

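Of 640 values of called Kcn probe sets under the alternatives, 468 kept call and direction, 172 lost the call and 0 reversed. Kcnh1 and Kcnj12 kept their calls in both genotypes under all 17 alternatives. In control epidermis the 20 CFA calls became 10 with ordinary analysis of variance, 3 with a 2-fold minimum, and 14 to 26 with an array left out. In mutant epidermis the 18 became 11 with all probe sets tested, 5 with analysis of variance, 2 with the 2-fold minimum, 28 at adjusted p under 0.1, and 9 to 16 with an array left out; the lowest counts came without naive mutant replicate 2 (9), naive mutant replicate 1 (11) and CFA mutant replicate 2 (11). The mutant split of 13 higher and 5 lower became 8 and 7 with quantile normalization and 7 and 5 with median centring. Between genotypes in CFA epidermis, 0 became 2 (Kcnj14 and Kcnk1) with the replicate block and 1 (Kcnk1) with all epidermal groups in one fit. In DRG, 0 became 1 (Kcnf1) at adjusted p under 0.1 and 1 (Kcnf1) with arrays centred on the receptor probe sets, an alternative added after seeing the data, and 0 to 3 with an array left out. The difference of CFA responses gave 0 to 1 with an array left out. The epidermal detection count of 41 became 14 at the 99th percentile. The replicate block gave 17 CFA calls in controls and 14 in mutants. Deviations of same-numbered arrays correlated from -0.236 to 0.233, so the numbers were not taken to pair the samples. Counts over all probe sets under these alternatives are not given here, so the moves cannot be read as particular to Kcn genes. The causes of these moves were not tested. Kcn signals close to background, the majority in epidermis, limit what a change or its absence can show.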
